A study of Mus musculus with 24 samples.

Results

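Expression of 8 genes of iron storage and transport, Fth1, Ftl1, Slc40a1, Tfrc, Slc11a1, Slc11a2, Ireb2 and Aco1, was described in mouse macrophages. A gene was taken when its symbol in the deposited tables equalled one of these names, and each of the 8 was found once among the 56691 genes of each table. All 8 had enough counts to be tested in both cell types.

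Poly(A) RNA was sequenced from RAW264.7 cells, a mouse macrophage-like leukemia line, and from bone marrow-derived macrophages (BMDMs), primary cells grown for 6 days from the marrow of 8-week-old male mice in medium with 20% L929 cell supernatant. Each cell type had wild-type cells and cells labelled Olfml3 knockout, each given PBS or lipopolysaccharide (LPS, the endotoxin of Gram-negative bacteria) at 100 ng/mL for 4 h, which gave 8 groups of 3 libraries. Groups were taken from the sample titles, and a separate genotype tag contradicted the title in 12 of the 24 libraries. Knockout BMDMs came from C57BL/6 Olfml3-/- mice made with CRISPR-Cas9. Knockout RAW264.7 cells were grown from single cells after lentiviral delivery of a guide RNA against Olfml3, so that the knockout and other differences of a clone cannot be told apart. The study calls the replicates biological, but the sources used here do not say whether they were separate mice or cultures, nor whether wild-type RAW264.7 cells received a vector, and p-values then measure only the spread between these libraries.

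RAW264.7 libraries held 11638273 to 16478616 counts each, and BMDM libraries 17121240 to 22873094. Olfml3 RNA did not follow the label in RAW264.7, where it was 0.139 to 0.183 TMM-scaled FPKM (defined below) in wild type with PBS and 0.595 to 1.09 in the libraries labelled knockout, and 0.139 to 0.320 against 19.7 to 20.4 with LPS. In BMDMs it was 0.417 to 0.516 against 0.00546 to 0.0233 with PBS and 0.322 to 0.343 against 0 to 0.00917 with LPS, lower in knockout. The study characterized the alleles of its RAW264.7 clones by Sanger sequencing and describes both as knocked out. Olfml3 protein was not measured here. Tnf, Il1b and Il6, cytokine genes induced by LPS, were higher in every LPS group than in every PBS group. Among the PBS libraries of RAW264.7 labelled knockout, replicate 1 stood apart: its mean correlation across genes was 0.964 with its own group and 0.972 with wild type under PBS, and called changes of named genes that rest on it are given with and without it. Of 10 macrophage marker genes, all 10 reached a mean of 1 TMM-scaled FPKM in some BMDM group and 8 did in RAW264.7, where Mertk was at 0 in all 12 libraries. None of 8 erythroid, 6 fibroblast and 5 NK cell markers reached 1 in either cell type. Of 8 neutrophil, 6 T cell and 5 B cell markers, none reached 1 in RAW264.7, and 2, 1 and 1 did in BMDMs.

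Macrophages recycle iron from aged red cells and also withhold it from microbes. Ferritin, a shell of heavy chains (Fth1) and light chains (Ftl1), stores iron in the cytosol, the transferrin receptor (Tfrc) brings in iron bound to transferrin, and ferroportin (Slc40a1) is the only known exporter of iron from mammalian cells. The metal transporters NRAMP1 (Slc11a1) and DMT1 (Slc11a2) move iron out of phagosomes and endosomes. The iron regulatory proteins IRP1 (Aco1) and IRP2 (Ireb2) bind hairpins called iron-responsive elements (IREs) when iron is scarce: binding in a 5′ UTR blocks translation and binding in a 3′ UTR protects the mRNA from decay, so that this control of ferritin and ferroportin acts on translation and that of the receptor on its mRNA level.

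The IRE is shown for the members that carry its letters. The motif searched on the sense strand was C, any 5 bases, CAGTGN and 5 bases that pair with the first 5 by Watson-Crick or G-U pairs. It was found in GENCODE M21 transcripts on GRCm38, in the 5′ UTR of Fth1 (exon 1, chr19:9982732-9982761, plus strand), Ftl1 (exon 1, chr7:45459778-45459807, minus strand) and Slc40a1 (exon 1, chr1:45925464-45925493, minus strand), and at 4 places in the 3′ UTR of Tfrc (exon 19, plus strand, chr16:32631219-32631248, chr16:32631598-32631627, chr16:32631663-32631692 and chr16:32631710-32631739). Capitals mark the CAGTGN loop.
Fth1: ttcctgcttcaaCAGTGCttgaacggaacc
Ftl1: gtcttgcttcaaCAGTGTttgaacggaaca
Slc40a1: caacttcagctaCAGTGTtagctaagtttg
Tfrc 1: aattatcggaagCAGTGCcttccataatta
Tfrc 2: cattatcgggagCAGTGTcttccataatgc
Tfrc 3: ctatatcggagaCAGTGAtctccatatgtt
Tfrc 4: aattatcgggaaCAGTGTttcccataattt

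The motif occurred in 4 of 5 coding transcripts of Fth1, 1 of 2 of Ftl1, 1 of 4 of Slc40a1 and 1 of 3 of Tfrc. Among all coding genes it was found in the 5′ UTR of 31 of 20899 (0.148%) and in the 3′ UTR of 129 of 21022 (0.614%). No match was found in Slc11a1, Slc11a2, Ireb2 or Aco1, which says only that these letters were not in their annotated UTRs.

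Levels are given as TMM-scaled FPKM, counts per kilobase of exon relative to the library total, with that total adjusted by TMM (trimmed mean of M values), which sets the typical gene equal between libraries. Groups were compared within a cell type with limma on the counts, and a gene was called changed when its p, adjusted by Benjamini-Hochberg, was under 0.05 and it differed at least 1.5-fold. The tables of both cell types were normalized separately, so levels set across them were not tested. In bulk samples, fewer cells of a type and less RNA per cell cannot be told apart.

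**Figure D1:**
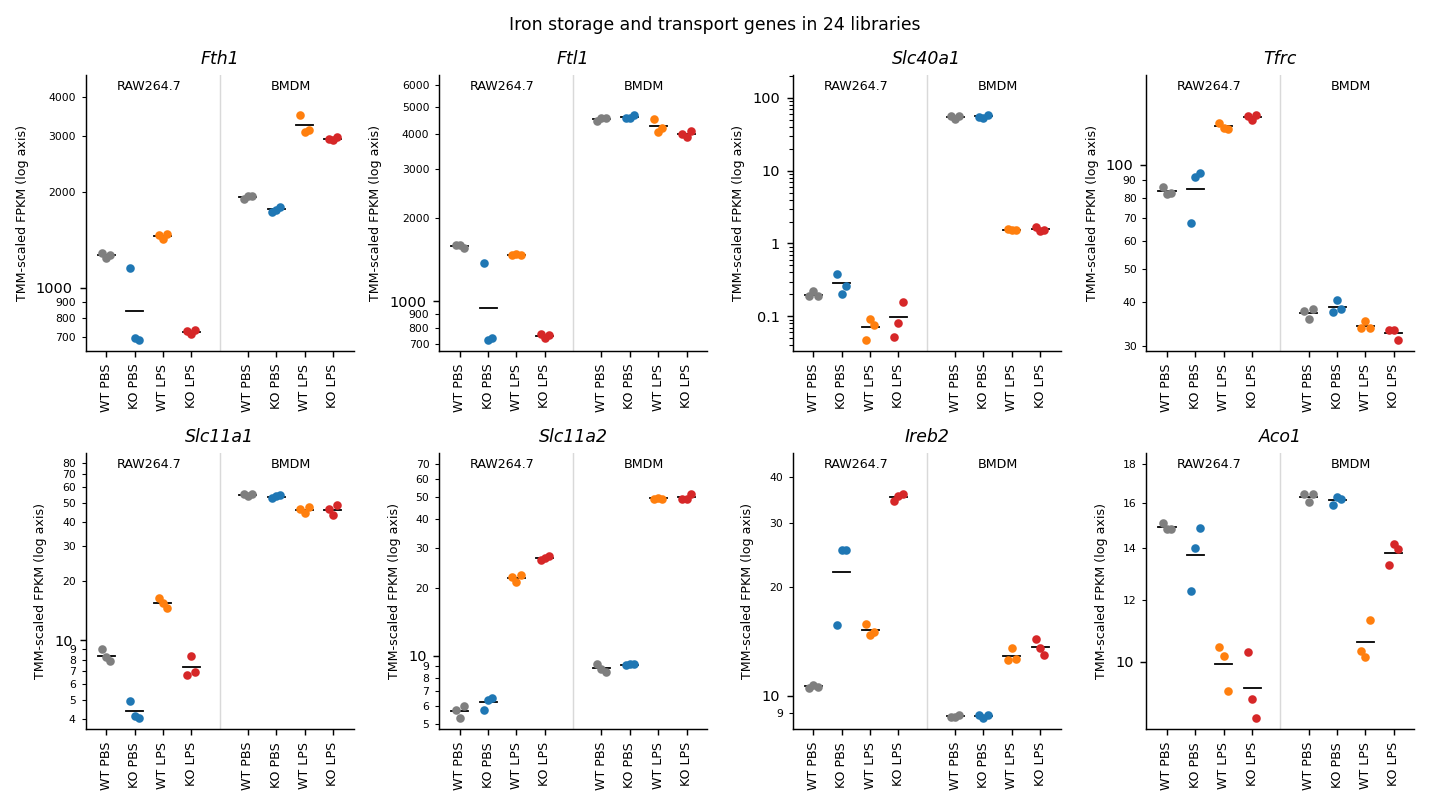
TMM-scaled FPKM (log axis) of the 8 genes in 24 libraries, 3 points per group in replicate order and a bar at the group mean, for wild type (WT) and libraries labelled knockout (KO) with PBS or LPS. In RAW264.7, replicate 1 labelled knockout with PBS lies between wild type and the other 2 libraries of its group for Fth1, Ftl1 and Ireb2, and in BMDMs Slc40a1 falls and Slc11a2 rises with LPS in both genotypes.

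With PBS, 4 of the 8 genes differed between wild-type RAW264.7 cells and those labelled knockout: Ireb2 was higher, and Fth1, Ftl1 and Slc11a1 were lower. Over all 13639 genes tested, 21.2% were changed. The median log2 fold change of the 8 genes was -0.061, against 0.00077 over all genes. Without replicate 1 labelled knockout with PBS, 4 genes were again called, 1 higher and 3 lower, when 37.9% of all genes were changed. With LPS, Ireb2 was again higher and Fth1, Ftl1 and Slc11a1 lower, when 31.7% of all genes were changed, and the median of the 8 genes was -0.0094 against -0.013. In BMDMs 0 of the 8 genes were called between genotypes, with 3.72% of 14057 genes changed under PBS and 8.87% under LPS, and medians of 0.012 and 0.0029 over the 8 genes against -0.0029 and 0.011 over all. By the adjusted p alone, without the fold threshold, Fth1 passed in BMDMs under PBS (17.3% of all genes), and Fth1, Ftl1 and Aco1 passed under LPS (33.3% of all genes), with differences of 1.07-fold to 1.3-fold. At an unadjusted p under 0.05 limma passed 1 of 8 with PBS (28.0% of all genes) and 3 of 8 with LPS (41.5%), and edgeR and DESeq2 also called 0 of 8 in both.

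LPS was followed by changes in 5 of the 8 genes in wild-type RAW264.7 cells (3 higher and 2 lower, 30.7% of all genes), in 5 in those labelled knockout (4 higher and 1 lower, 38.1%), in 4 in wild-type BMDMs (2 higher and 2 lower, 56.1%) and in 4 in knockout BMDMs (3 higher and 1 lower, 53.5%). The medians of the 8 genes were 0.36 and 0.27 in RAW264.7 and -0.10 and -0.21 in BMDMs, against 0.0087, 0.017, -0.073 and -0.066 over all genes. Without replicate 1 labelled knockout with PBS, 4 genes were called with LPS in RAW264.7 labelled knockout, 2 higher and 2 lower (37.5% of all genes). On the deposited FPKM, which is not TMM-scaled, the share of changed genes that were higher went from 46.6% to 31.7% and from 48.9% to 33.8% in wild-type RAW264.7 and those labelled knockout, and from 44.8% to 19.6% and 44.7% to 20.6% in wild-type and knockout BMDMs. By the adjusted p alone all 8 genes passed in BMDMs, as did 80.6% of all genes in wild type and 79.1% in knockout. Slc11a2 rose and Slc40a1 fell in all 4 LPS comparisons, the latter from few counts in RAW264.7. The difference of the knockout effect between LPS and PBS was called for 0 of 8 genes in RAW264.7 (3.04% of all genes) and 0 of 8 in BMDMs (5.4%), where Aco1 and Ftl1 passed the adjusted p alone (18.5% of all genes). Without replicate 1 labelled knockout with PBS the difference in RAW264.7 went from -0.37 to -0.13 for Fth1 and from -0.16 to 0.14 for Ftl1, and 0 of 8 were called. At an unadjusted p under 0.05 limma passed 0 of 8 in RAW264.7 (14.8% of all genes) and 3 of 8 in BMDMs (29.1%), and edgeR and DESeq2 also called 0 of 8 in both. The RAW264.7 result depends on the spread: across the alternatives the difference was -0.50 to -0.13 for Fth1 and -0.32 to 0.14 for Ftl1. These stayed under the fold threshold, but for both genes the lowest adjusted p was under 0.05.

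**Figure D2:**
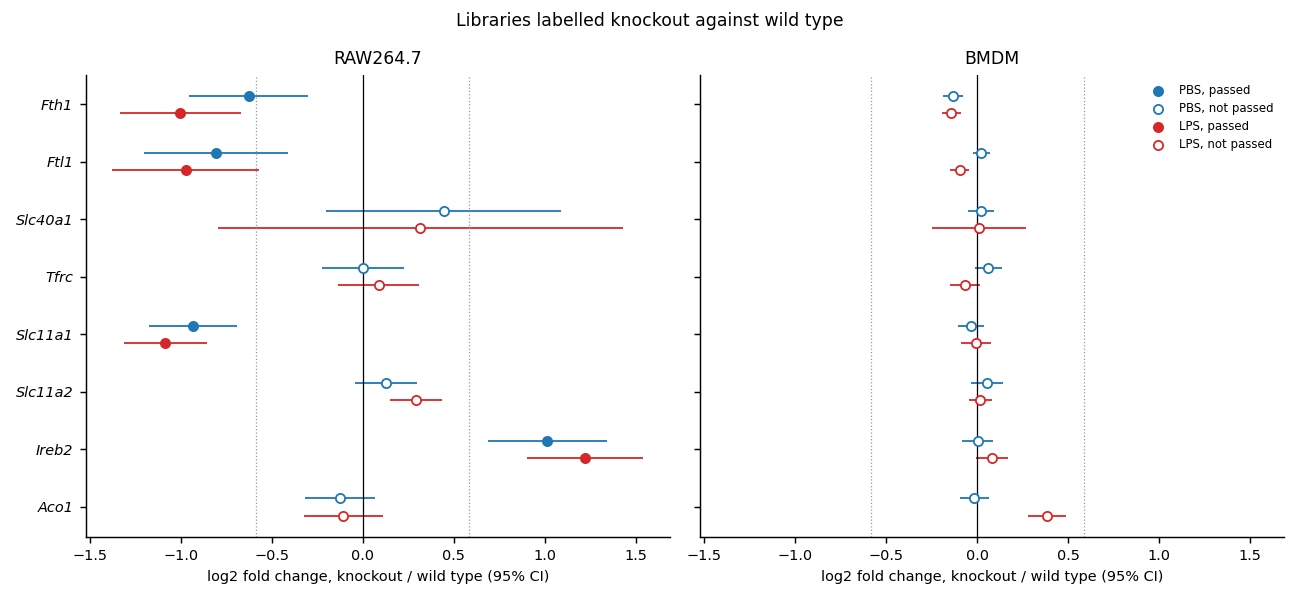
Log2 fold change of the 8 genes in libraries labelled knockout against wild type with its 95% confidence interval, with PBS (blue) and LPS (red). Each group had 3 libraries, and the spread was shared by all 12 libraries of a cell type. Filled points were called changed, open points were not, and dotted lines mark a 1.5-fold change; Fth1, Ftl1, Slc11a1 and Ireb2 are filled in RAW264.7 and no point is filled in BMDMs.

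The summed level of the macrophage markers moved with the genotype label in RAW264.7. It was 3267 to 3332 TMM-scaled FPKM in wild type with PBS and 1137 to 1437 in those labelled knockout, and 4490.1 to 4664 against 1538 to 1607 with LPS. Of 8 markers tested, 4 were lower and 0 higher in each comparison, when 21.2% of all genes were changed with PBS and 31.7% with LPS. The counts were the same without replicate 1 labelled knockout with PBS, when 37.9% and 35.3% of all genes were changed. In BMDMs the sum was 11956 to 12238 in wild type and 12932 to 13837 in knockout with PBS, and 16991 to 17383 against 16047 to 16305 with LPS. The summed level of 7 markers of dividing cells was 581 to 589.7 in wild-type RAW264.7 with PBS and 374 to 380.3 with LPS, and in wild-type BMDMs 258 to 279.7 with PBS and 188 to 199 with LPS. In BMDMs 5 of these 7 were higher in knockout under both treatments, when 3.72% of all genes were changed with PBS and 8.87% with LPS. The summed level of the 8 neutrophil markers in wild-type BMDMs was 4.22 to 5.52 with PBS and 7.47 to 11.6 with LPS, and in knockout 4.53 to 5.55 and 6.93 to 7.98. Of the 6 T cell markers, 5 were at 0 in all 12 BMDM libraries, so that their summed level is that of 1 gene. It was 6.08 to 6.79 in wild type and 4.95 to 5.15 in knockout with PBS, and 5.94 to 6.73 against 4.02 to 4.598 with LPS. That gene was called lower in knockout with LPS (limma, log2 fold change -0.6002) and was not called with PBS. The summed level of the 8 erythroid markers was at most 0.585 TMM-scaled FPKM in any library. The part of these differences in the results on the 8 genes was not tested.

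The ferritin chains had the highest levels of the 8 genes in every group. Fth1, the chain with ferroxidase activity, has its place in the tables (ENSMUSG00000024661) on the plus strand of chromosome 19, 9957962 to 9962462. The submitters' processing notes name mm10, but positions in the tables are not those of GRCm38, so they are not set beside the IRE positions above. In RAW264.7 with PBS, Fth1 was at 1282, 1243 and 1271 TMM-scaled FPKM in wild type and at 1155, 694 and 685 in replicates 1 to 3 labelled knockout. The last 2 libraries were far below wild type and replicate 1 was close below it, without overlap. The fall was 1.54-fold (limma, log2 fold change -0.63 ± 0.15 (SE), adjusted p = 0.00843), and without replicate 1 the log2 fold change was -0.88. Without replicate 2 or replicate 3 it was -0.50 each, under the fold threshold, and the call was also lost with edgeR, where it was -0.58, with limma on log2(deposited FPKM + 0.1), at -0.59 (adjusted p = 0.0532), and with limma on the 2 groups alone, at -0.62 (adjusted p = 0.0793).

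With LPS, Fth1 was at 1460.3, 1426 and 1474 in wild type and 732, 713 and 733 in RAW264.7 cells labelled knockout. These groups were far apart and their libraries close together, a 2.00-fold difference (limma, log2 fold change -1.001 ± 0.15 (SE), adjusted p = 0.000338). In the fit of all 12 RAW264.7 libraries LPS did not move Fth1 past the thresholds, although the wild-type LPS libraries all lay above the PBS libraries. The spread in that fit was shared with the libraries labelled knockout, replicate 1 with PBS among them. Across the alternatives the values were -0.024 to 0.22 in wild type and -0.41 to 0.070 in those labelled knockout. All were under the fold threshold, and in both the lowest adjusted p was under 0.05. The log2 fold change of LPS against PBS was 0.20 in wild type (95% CI -0.13 to 0.53, limma, adjusted p = 0.303) and -0.17 in those labelled knockout (95% CI -0.51 to 0.16, limma, adjusted p = 0.358), the latter turning to 0.07 without replicate 1 of the PBS group.

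Ftl1, the light chain that aids formation of the iron core, has its place in the tables (ENSMUSG00000050708) on the minus strand of chromosome 7, 45107368 to 45109308. It was at 1599, 1599 and 1561 in wild-type RAW264.7 with PBS and at 1379, 728 and 739 in those labelled knockout. As for Fth1, replicate 1 lay near wild type and the other 2 libraries well below. The fall was 1.75-fold (limma, log2 fold change -0.81 ± 0.18 (SE), adjusted p = 0.00605), or -1.12 on the log2 scale without replicate 1. The call was lost with limma on the 2 groups alone, at -0.80 (adjusted p = 0.0681). With LPS, Ftl1 was at 1471, 1479 and 1475 in wild type and 763, 738 and 756 in those labelled knockout, 1.96-fold lower with no overlap (limma, log2 fold change -0.97 ± 0.18 (SE), adjusted p = 0.00148). The log2 fold change with LPS did not pass the thresholds in either genotype, at -0.11 ± 0.18 in wild type and -0.27 ± 0.19 in those labelled knockout (SE, limma, adjusted p = 0.671 and 0.243), and the latter was 0.034 without replicate 1. As for Fth1, the spread was shared with the libraries labelled knockout. Across the alternatives the wild-type value was -0.33 to -0.086, under the fold threshold, and its lowest adjusted p was under 0.05.

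In BMDMs the 2 chains parted under LPS. Fth1 was at 1906, 1945 and 1940.0 in wild type with PBS and at 3489, 3103 and 3138 with LPS, and in knockout at 1727, 1759.8 and 1799.7 and 2934, 2912 and 2973. Every LPS library was above every PBS library, 1.68-fold higher in wild type (limma, log2 fold change 0.75 ± 0.026 (SE), adjusted p = 1.56e-19) and 1.67-fold in knockout (limma, log2 fold change 0.74 ± 0.027 (SE), adjusted p = 4e-19). This rise depends on the scaling: on the deposited FPKM, on which the median of all genes moves by -0.76 in wild type and -0.66 in knockout, the log2 fold change was -0.026 and 0.068, and Fth1 took a share of counts of 0.847% ± 0.00744 with PBS and 0.833% ± 0.0546 with LPS in wild type (SD, n = 3).

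Ftl1 in BMDMs was at 4461, 4585 and 4566 in wild type with PBS and 4541, 4084 and 4204 with LPS, and in knockout at 4571, 4583 and 4677 and 3999, 3913 and 4093. The wild-type groups overlapped and the knockout groups did not. The differences were under the fold threshold, -0.086 ± 0.024 in wild type and -0.21 ± 0.024 in knockout (log2, SE, limma, adjusted p = 0.00194 and 2.08e-08), and were larger on the deposited FPKM, at -0.86 and -0.88. The difference between these responses was -0.12 ± 0.034 (limma, adjusted p = 0.014), and -0.016 on log2(deposited FPKM + 0.1) (limma, adjusted p = 0.934).

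Within BMDMs the order of Fth1 by group means was wild type with LPS, knockout with LPS, wild type with PBS and knockout with PBS, and no neighbours overlapped. Knockout against wild type was -0.13 ± 0.027 with PBS and -0.14 ± 0.026 with LPS on the log2 scale (SE, limma, adjusted p = 0.000569 and 0.000116), under the fold threshold. On the deposited FPKM the order did not hold: group means were 2441 in wild type and 2295 in knockout with PBS, and 2401 and 2404 with LPS, and knockout against wild type with LPS was 0.0039, where the median of all genes moved by 0.14.

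The ratio of Ftl1 to Fth1 per length does not depend on the scaling of a library. In BMDMs it was 2.35 ± 0.00875 in wild type and 2.62 ± 0.0259 in knockout with PBS, and 1.32 ± 0.0191 and 1.36 ± 0.0166 with LPS (SD, n = 3). All LPS libraries had lower ratios than all PBS libraries. In RAW264.7 it was 1.25 ± 0.0299 in wild type and 1.11 ± 0.0767 in those labelled knockout with PBS, and 1.02 ± 0.0196 and 1.04 ± 0.00525 with LPS. The lengths are unions of annotated exons, 3469 bases for Fth1 and 1340 for Ftl1, so the ratio is not one of protein subunits.

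**Figure D3:**
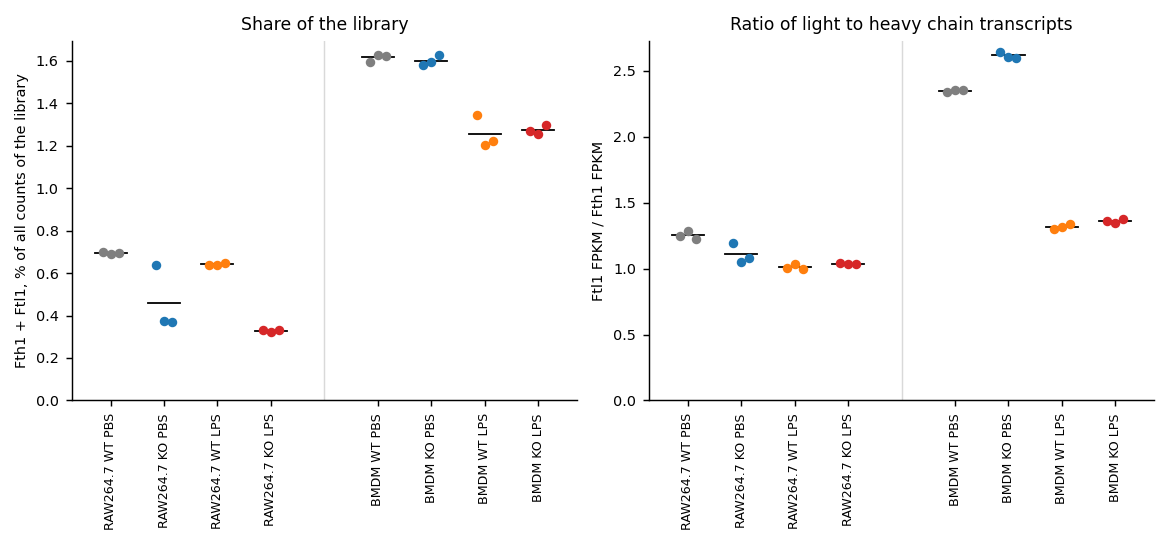
Left, share of all counts of a library on Fth1 and Ftl1 together (percent); right, ratio of Ftl1 to Fth1 FPKM; one point per library, bars at group means, both axes from 0. The 2 genes took 0.690% to 0.701% of counts in wild-type RAW264.7 with PBS and 0.322% to 0.331% in those labelled knockout with LPS, and in BMDMs the ratio is above 2.3 in all PBS libraries and below 1.4 in all LPS libraries.

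Together the 2 chains took 0.695% ± 0.00569 of counts in wild-type RAW264.7 with PBS and 0.641% ± 0.00544 with LPS, against 0.461% ± 0.155 and 0.328% ± 0.00534 in those labelled knockout (SD, n = 3). By counts Fth1 ranked 6 among all genes in every wild-type RAW264.7 library with PBS, and 23 to 26 in those labelled knockout with LPS. Ftl1 has a near-identical pseudogene copy, Ftl1-ps1, that can share its reads: its counts were 3.58% to 4.63% of those of Ftl1 in RAW264.7 and 0.643% to 0.788% in BMDMs. Adding them left the mean log2 difference between genotypes in RAW264.7 at -0.81 under PBS and -0.98 under LPS.

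Slc40a1, ferroportin, has its place in the tables (ENSMUSG00000025993) on the minus strand of chromosome 1, 45947228 to 45965683. It had the largest fold change of the 8 genes with LPS in BMDMs. In BMDMs it was at 56.5, 50.3 and 56.8 TMM-scaled FPKM in wild type with PBS and at 1.59, 1.53 and 1.51 with LPS. Knockout BMDMs had 55.3, 53.5 and 57.4 with PBS and 1.69, 1.47 and 1.52 with LPS. The genotypes overlapped under both treatments, while LPS lowered the gene 35.2-fold in wild type (limma, log2 fold change -5.14 ± 0.092 (SE), adjusted p = 4.14e-26) and 35.5-fold in knockout (limma, log2 fold change -5.15 ± 0.091 (SE), adjusted p = 4.08e-26). The difference between genotypes was 0.021 (95% CI -0.051 to 0.093) with PBS and 0.011 (95% CI -0.25 to 0.27) with LPS on the log2 scale.

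In RAW264.7 Slc40a1 was scarcely expressed, at 0.188 to 0.219 in wild type with PBS and 0.0477 to 0.0904 with LPS, and at 0.201 to 0.382 and 0.0513 to 0.156 in those labelled knockout, from 5 to 62 counts per library. It fell with LPS, 2.73-fold in wild type (limma, log2 fold change -1.45 ± 0.43 (SE), adjusted p = 0.0153) and 2.99-fold in those labelled knockout (limma, log2 fold change -1.58 ± 0.40 (SE), adjusted p = 0.0051). Without wild-type LPS replicate 1 the adjusted p of the first was 0.0652. Without replicate 1 labelled knockout with PBS the second was -1.32. Both calls were lost with limma on log2(deposited FPKM + 1), at -0.19 in wild type and -0.26 in those labelled knockout, under the fold threshold.

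Tfrc, the transferrin receptor, has its place in the tables (ENSMUSG00000022797) on the plus strand of chromosome 16, 32427738 to 32451612. All RAW264.7 libraries lay above all BMDM libraries. Wild-type RAW264.7 cells had 85.9, 82.4 and 82.6 with PBS and 132, 128 and 127 with LPS, and those labelled knockout 67.8, 91.8 and 94.7 and 138, 135 and 139. LPS libraries were above PBS libraries in both genotypes, 1.54-fold in wild type (limma, log2 fold change 0.62 ± 0.10 (SE), adjusted p = 0.000279) and 1.64-fold in those labelled knockout (limma, log2 fold change 0.71 ± 0.10 (SE), adjusted p = 8.19e-05). Without replicate 1 labelled knockout with PBS the second log2 fold change was 0.55, under the fold threshold, and on the deposited FPKM they were 0.40 and 0.47. In BMDMs Tfrc was at 37.8, 35.7 and 38.2 with PBS and 33.7, 35.3 and 33.7 with LPS in wild type, and at 37.6, 40.7 and 38.2 and 33.4, 33.4 and 31.2 in knockout. The LPS libraries were lower in both, with log2 fold changes of -0.12 ± 0.038 and -0.25 ± 0.038 (SE, limma, adjusted p = 0.00581 and 1.78e-06), under the fold threshold. On the deposited FPKM these were -0.89 and -0.92, past it. Between genotypes Tfrc was not called: in RAW264.7 the log2 fold change was 0.0026 with PBS (95% CI -0.22 to 0.23) and 0.088 with LPS (95% CI -0.13 to 0.31).

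**Figure D4:**
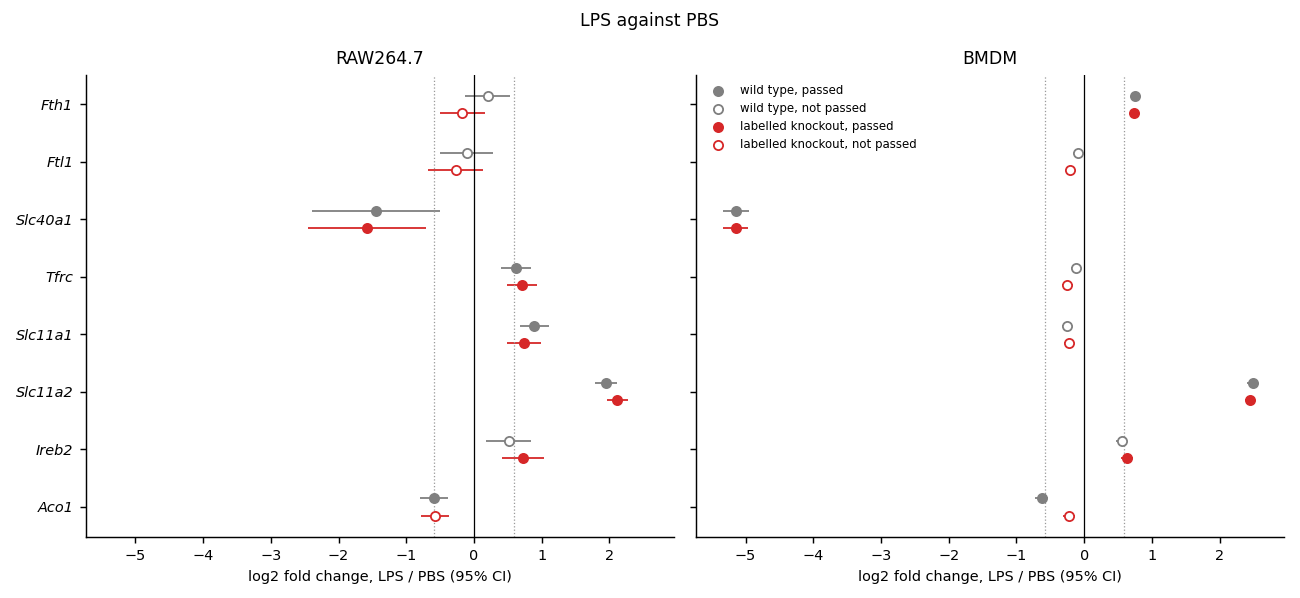
Log2 fold change of the 8 genes, LPS against PBS, with its 95% confidence interval, in wild type (grey) and in libraries labelled knockout (red). Each group had 3 libraries, and the spread was shared by all 12 libraries of a cell type. Filled points were called changed and dotted lines mark a 1.5-fold change; Slc11a2 rises in all 4 comparisons, Slc40a1 falls in all 4, and Tfrc and Slc11a1 lie above 0 in RAW264.7 and below 0 in BMDMs.

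Slc11a1, the phagosome transporter NRAMP1 known for its part in resistance to intracellular microbes, has its place in the tables (ENSMUSG00000026177) on the plus strand of chromosome 1, 74414354 to 74425221. In RAW264.7 it was at 9.02, 8.20 and 7.85 in wild type with PBS and 4.93, 4.15 and 4.04 in those labelled knockout, and at 16.4, 15.5 and 14.6 against 6.71, 8.32 and 6.93 with LPS. The genotypes did not overlap under either treatment. It was 1.91-fold lower in those labelled knockout with PBS (limma, log2 fold change -0.93 ± 0.11 (SE), adjusted p = 7.83e-05) and 2.12-fold lower with LPS (limma, log2 fold change -1.08 ± 0.10 (SE), adjusted p = 1.14e-05). Without replicate 1 the log2 fold change with PBS was -1.03. LPS raised it in both, 1.86-fold in wild type (limma, log2 fold change 0.89 ± 0.10 (SE), adjusted p = 1.14e-05) and 1.67-fold in those labelled knockout (limma, log2 fold change 0.74 ± 0.12 (SE), adjusted p = 0.000162), the latter 0.83 without replicate 1 and 0.50, under the fold threshold, on the deposited FPKM.

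In every BMDM library Slc11a1 was above every RAW264.7 library. The genotypes overlapped, at 55.3, 54.2 and 55.6 with PBS in wild type and 52.6, 54.02 and 54.5 in knockout. With LPS it was at 46.7, 44.2 and 47.6 and 46.7, 43.3 and 48.4. LPS libraries were lower than PBS libraries, with log2 fold changes of -0.25 ± 0.038 in wild type and -0.22 ± 0.038 in knockout (SE, limma, adjusted p = 9.5e-07 and 7.27e-06), under the fold threshold, and past it at -1.03 and -0.89 on the deposited FPKM.

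Slc11a2, the transporter DMT1 that passes ferrous iron from endosomes to the cytosol, has its place in the tables (ENSMUSG00000023030) on the minus strand of chromosome 15, 100285779 to 100322953. It was raised by LPS under every alternative tried. In RAW264.7 it went from 5.80, 5.33 and 5.99 to 22.2, 21.2 and 22.7 in wild type, 3.87-fold (limma, log2 fold change 1.95 ± 0.072 (SE), adjusted p = 4.99e-10), and from 5.77, 6.40 and 6.53 to 26.5, 26.9 and 27.4 in those labelled knockout, 4.33-fold (limma, log2 fold change 2.11 ± 0.071 (SE), adjusted p = 1.72e-10), or 2.06 on the log2 scale without replicate 1 of the PBS group. In BMDMs it went from 9.17, 8.75 and 8.53 to 49.2, 49.8 and 49.2 in wild type, 5.60-fold (limma, log2 fold change 2.49 ± 0.037 (SE), adjusted p = 6.47e-28), and from 9.10, 9.17 and 9.21 to 49.2, 49.3 and 51.8 in knockout, 5.46-fold (limma, log2 fold change 2.45 ± 0.037 (SE), adjusted p = 1.09e-27). LPS and PBS libraries were far apart in all 4. Between genotypes it was higher in RAW264.7 labelled knockout with LPS without overlap, by 0.29 ± 0.066 (log2, SE, limma, adjusted p = 0.00381), under the fold threshold.

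Ireb2, which encodes IRP2, the regulatory protein that is degraded when iron is plentiful, has its place in the tables (ENSMUSG00000032293) on the plus strand of chromosome 9, 54771073 to 54819814. In RAW264.7 with PBS it was at 10.5, 10.7 and 10.6 in wild type and 15.6, 25.1 and 25.2 in those labelled knockout. All 3 of the latter were higher, replicate 1 least. The rise was 2.02-fold (limma, log2 fold change 1.01 ± 0.15 (SE), adjusted p = 0.000387), or 1.24 on the log2 scale without replicate 1. With LPS it was at 15.8, 14.7 and 14.98 and 34.4, 35.5 and 36.03, 2.33-fold higher in those labelled knockout (limma, log2 fold change 1.22 ± 0.15 (SE), adjusted p = 6.27e-05). LPS raised it 1.65-fold in those labelled knockout (limma, log2 fold change 0.72 ± 0.14 (SE), adjusted p = 0.00103), which without replicate 1 was 0.49, under the fold threshold. The call was also lost on log2(deposited FPKM + 0.1), at 0.48 (limma, adjusted p = 0.0538), and with a weight for each library, at 0.50. In wild type Ireb2 was 1.43-fold higher with LPS, also under the threshold (limma, log2 fold change 0.51 ± 0.15 (SE), adjusted p = 0.0149), and 0.27 was the lowest value among the alternatives.

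In BMDMs Ireb2 was at 8.73, 8.73 and 8.87 in wild type and 8.84, 8.69 and 8.86 in knockout with PBS, and at 12.5, 13.5 and 12.6 and 14.3, 13.5 and 12.98 with LPS. The genotypes overlapped and the treatments did not. The rise with LPS was 1.47-fold in wild type (limma, log2 fold change 0.55 ± 0.041 (SE), adjusted p = 2.37e-12), just under the fold threshold, and 1.55-fold in knockout (limma, log2 fold change 0.63 ± 0.041 (SE), adjusted p = 1.4e-13), just past it, and the difference between these was 0.079 ± 0.058 (limma, adjusted p = 0.411). On the deposited FPKM they were -0.22 and -0.041.

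Aco1, which encodes IRP1, a cytosolic aconitase that binds IREs when it lacks its iron-sulfur cluster, has its place in the tables (ENSMUSG00000028405) on the plus strand of chromosome 4, 40143081 to 40198338. In BMDMs with PBS it was at 16.4, 16.1 and 16.5 in wild type and 15.9, 16.3 and 16.2 in knockout, which overlapped. With LPS it was at 10.3, 10.1 and 11.3 in wild type and 13.3, 14.2 and 13.96 in knockout. Wild type was lower in all 3 libraries. The fall with LPS was 1.54-fold in wild type (limma, log2 fold change -0.62 ± 0.047 (SE), adjusted p = 3.03e-12) and 1.17-fold, not called, in knockout (limma, log2 fold change -0.23 ± 0.044 (SE), adjusted p = 5.06e-05). Knockout against wild type was 1.30-fold with LPS (limma, log2 fold change 0.38 ± 0.051 (SE), adjusted p = 8.21e-07), and the difference of the knockout effect between LPS and PBS was 0.40 (95% CI 0.27 to 0.53, limma, adjusted p = 4.26e-05), both under the fold threshold. DESeq2 gave -0.58 for the fall in wild type, under the fold threshold, and on the deposited FPKM the falls were -1.39 and -0.89, both past it.

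In RAW264.7 Aco1 was at 15.1, 14.8 and 14.8 in wild type with PBS and 10.4, 10.2 and 9.17 with LPS, and at 12.3, 13.99 and 14.9 and 10.3, 8.94 and 8.46 in those labelled knockout. LPS lowered it 1.505-fold in wild type (limma, log2 fold change -0.59 ± 0.093 (SE), adjusted p = 0.000217), at the fold threshold, and DESeq2 gave -0.57, under it. Without wild-type LPS replicate 3 it was -0.53. In those labelled knockout it was -0.57 ± 0.095 (log2, SE, limma, adjusted p = 0.000264), just under the threshold, and past it at -0.65 without replicate 1 of the PBS group. The genotypes overlapped under both treatments.

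The other genes of iron handling were followed as a list of 63, of which 46 were tested in RAW264.7 and 50 in BMDMs. In RAW264.7 labelled knockout with PBS 3 were higher and 8 lower (21.2% of all genes changed), and with LPS 4 were higher and 12 lower (31.7%). Their median log2 fold change was -0.16 in both, against 0.00077 and -0.013 over all genes. Without replicate 1 labelled knockout with PBS, an alternative chosen after seeing the data, 7 were higher and 11 lower with PBS, when 37.9% of all genes were changed. Of the 7 tested genes of heme breakdown and transport, 4 were lower with PBS and 3 with LPS and 0 higher, with or without that replicate.

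**Figure D5:**
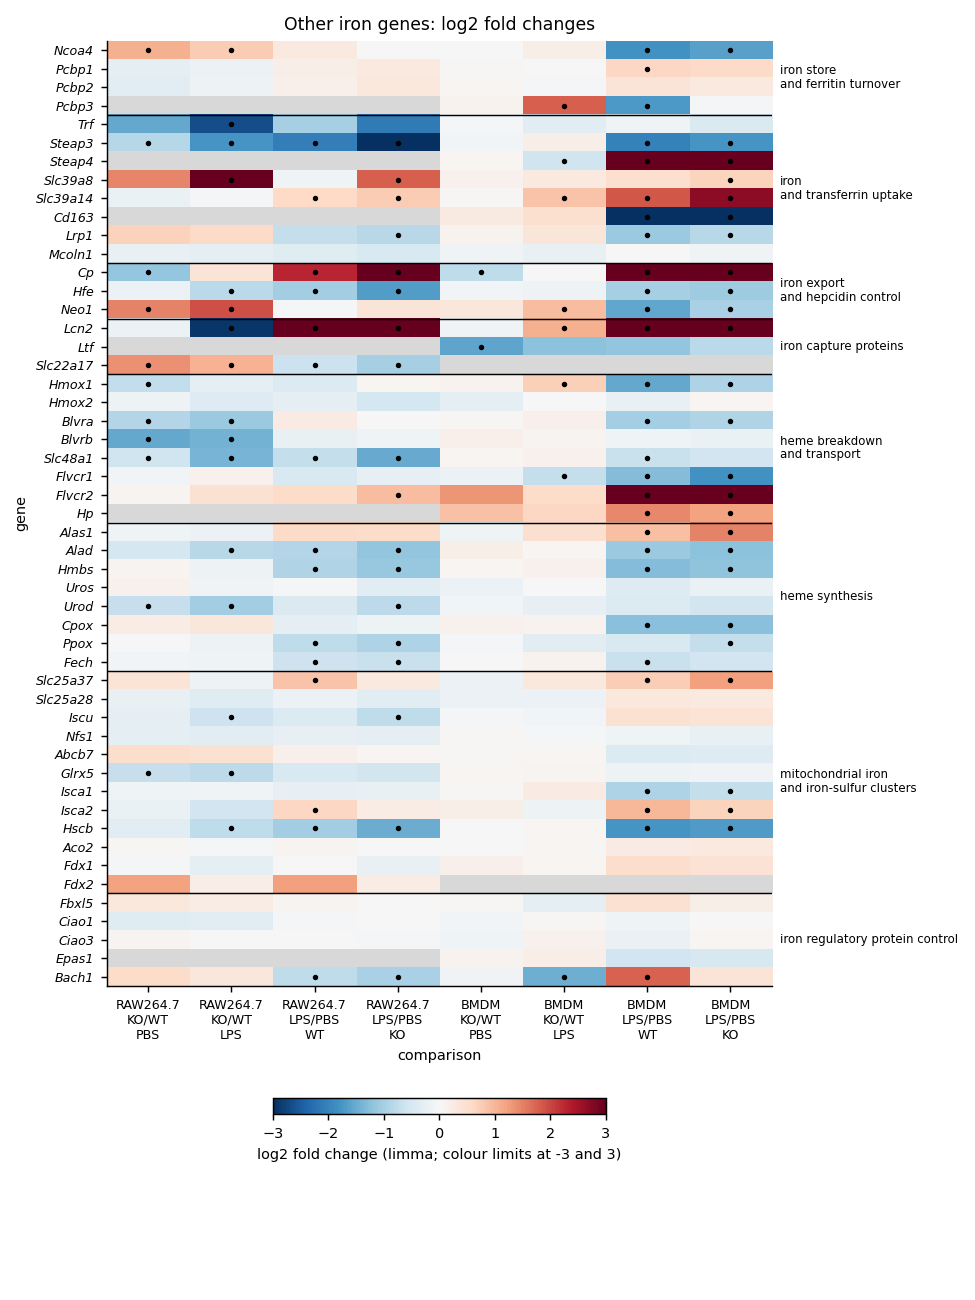
Log2 fold changes of other iron genes tested in either cell type (rows, grouped by role) in 8 comparisons (columns), red higher and blue lower, colours ending at 3 and -3, grey where a gene was not tested. Black dots mark genes called changed; in BMDMs few are marked between genotypes and many with LPS.

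Blvrb, a biliverdin reductase of heme breakdown, fell from 13.1 ± 1.14 to 4.66 ± 1.498 in RAW264.7 labelled knockout with PBS (SD, n = 3; limma, log2 fold change -1.53 ± 0.16 (SE), adjusted p = 3.79e-05). Neo1, neogenin, a co-receptor in hepcidin control, rose from 0.400 ± 0.193 to 1.06 ± 0.285, and Slc22a17, a receptor for lipocalin 2, from 1.36 ± 0.373 to 3.41 ± 0.359 (limma, adjusted p = 0.00246 and 0.000116). Without replicate 1 the log2 fold change was -1.78 for Blvrb, 1.71 for Neo1 and 1.33 for Slc22a17, against -1.53, 1.48 and 1.38 with it. With LPS, Lcn2, lipocalin 2, which binds bacterial siderophores, was at 0.987 to 1.71 in wild type and 0.124 to 0.211 in those labelled knockout (limma, log2 fold change -2.91 ± 0.38 (SE), adjusted p = 0.000108), from 4 to 59 counts. Steap3, the endosomal ferrireductase, was at 1.49 ± 0.158 against 0.430 ± 0.0367 (limma, log2 fold change -1.76 ± 0.21 (SE), adjusted p = 6.98e-05), and Neo1 at 0.355 ± 0.0456 against 1.37 ± 0.0624 (limma, log2 fold change 1.94 ± 0.31 (SE), adjusted p = 0.000457).

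With LPS in RAW264.7, 5 of 46 were higher and 11 lower in wild type (30.7% of all genes changed), and 5 higher and 13 lower in those labelled knockout (38.1%), or 3 and 13 without replicate 1 labelled knockout with PBS. Lcn2 had 0 counts in all 6 PBS libraries. Cp, ceruloplasmin, a ferroxidase that works with ferroportin, rose from 0.307 ± 0.113 to 1.48 ± 0.131 in wild type and from 0.133 ± 0.0300 to 1.95 ± 0.322 in those labelled knockout (limma, adjusted p = 7e-06 and 4.55e-07). Steap3 fell in both, by 2.08 and 2.99 on the log2 scale (limma, adjusted p = 3.74e-08 and 9.49e-08), and Hfe, which binds the transferrin receptor, fell from 2.93 ± 0.544 to 0.908 ± 0.244 in those labelled knockout (limma, log2 fold change -1.68 ± 0.25 (SE), adjusted p = 0.000101). In those labelled knockout, without replicate 1 of the PBS group, the log2 fold change was 3.80 for Cp, -2.97 for Steap3 and -1.54 for Hfe, all 3 again called. The difference of the knockout effect between LPS and PBS was called for 2 of 46 (3.04% of all genes), Cp at 1.55 and Slc48a1, a heme transporter, at -0.80 (limma, adjusted p = 0.0469 and 0.0175). Without that replicate it was called for 2 higher and 4 lower (6.32% of all genes), with Cp at 1.52 and Slc48a1 at -0.67. Slc48a1 was at 22.5 ± 0.636 and 14.9 ± 2.29 with PBS and at 13.6 ± 0.783 and 5.18 ± 0.551 with LPS.

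In BMDMs 2 of 50 were lower in knockout with PBS and 0 higher (3.72% of all genes changed): Cp, from 0.794 ± 0.0769 to 0.466 ± 0.0594 (limma, log2 fold change -0.76 ± 0.12 (SE), adjusted p = 3.97e-05), and Ltf, lactoferrin, at 0.0821 to 0.231 in wild type and 0.0195 to 0.113 in knockout (limma, log2 fold change -1.58 ± 0.55 (SE), adjusted p = 0.0473), with 2 to 22 counts. Both were named after their values were seen, being under 1 FPKM. With LPS 5 were higher and 3 lower (8.87%). Bach1, a heme-binding repressor of heme oxygenase and ferritin genes, was at 69.99 ± 2.46 in wild type and 25.4 ± 0.175 in knockout (limma, log2 fold change -1.46 ± 0.034 (SE), adjusted p = 1.06e-21), and at 20.6 ± 0.346 and 19.3 ± 0.453 with PBS. The difference of the knockout effect between LPS and PBS was -1.37 ± 0.049 (limma, adjusted p = 7.91e-17). Lcn2 was at 5.57 ± 0.410 against 11.8 ± 0.886 (limma, log2 fold change 1.08 ± 0.081 (SE), adjusted p = 2.79e-11), and Slc39a14, the iron importer ZIP14, at 7.73 ± 0.653 against 14.1 ± 0.310 (limma, log2 fold change 0.86 ± 0.048 (SE), adjusted p = 5.96e-14).

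LPS was followed by 11 higher and 17 lower of the 50 in wild-type BMDMs (56.1% of all genes changed) and by 10 higher and 16 lower in knockout (53.5%). Cp rose from 0.794 ± 0.0769 to 22.1 ± 0.892 in wild type (limma, log2 fold change 4.80 ± 0.079 (SE), adjusted p = 5.5e-27) and from 0.466 ± 0.0594 to 22.3 ± 0.501 in knockout (limma, log2 fold change 5.57 ± 0.10 (SE), adjusted p = 7.87e-26). Lcn2 was at 0.0405 to 0.0689 with PBS and 5.30 to 6.04 with LPS in wild type, and at 0.0330 to 0.0769 and 10.8 to 12.5 in knockout (limma, adjusted p = 6.74e-14 and 4.4e-15). Steap4, a ferrireductase, had 0 counts in all 6 PBS libraries and 111 to 139 in wild type and 68 to 101 in knockout with LPS. The difference of the knockout effect was called for 4 higher and 2 lower (5.4%). Among these was Slc39a14 at 0.82 (limma, adjusted p = 3.08e-08).

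For each of the 8 genes, the 2 genes with the most similar pattern were found by Pearson's r over the 8 group means of log2 levels, centred within each cell type, among 10186 genes. They were Mrps18c and Ublcp1 for Fth1 (both r = 0.999), Pmp22 (0.997) and the copy Ftl1-ps1 (0.992) for Ftl1, Pdxk (0.998) and Pcmtd2 (0.997) for Slc40a1, and Gm17300 (0.992) and Tasp1 (0.988) for Tfrc. Cyth3 (0.982) and Fbxw9 (0.978) were nearest to Slc11a1, Nfkb2 and Ebi3 (both 0.999) to Slc11a2, Ankrd49 and Usp9x (both 0.997) to Ireb2, and Fam76a (0.993) and Prrc1 (0.987) to Aco1. These are the highest of many values over 8 points that share libraries, and are a description.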

How the data were processed

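For each cell type the authors deposited raw read counts and FPKM of all genes in 1 table. The submitters' processing notes name mm10. The aligner was not given in the sources used here, nor was the counter. Deposited FPKM followed from the counts within 1% for 99.9% (RAW264.7) and 99.5% (BMDM) of values over 50 counts. Titles gave the groups; a genotype tag contradicted the title in 12 of 24 libraries. Counts were filtered by expression, TMM-scaled (edgeR 4.0.16) and fitted with limma 3.58.1 (voom) in R 4.3.3 over 12 libraries per cell type, checked on simulated data. There limma recovered 97.5% of 200 changed genes in RAW264.7 and 100% in BMDMs. No simulated library stood apart from its group, so the check does not cover a library like replicate 1 labelled knockout with PBS. A p under 0.05 after Benjamini-Hochberg adjustment and a difference of at least 1.5-fold made a gene changed. edgeR's quasi-likelihood test, DESeq2 1.42.0, limma on log2(deposited FPKM + 0.1 or 1), other filters and designs, and leaving out each replicate were alternatives.

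The 8 genes and the lists were chosen with earlier results of these data known. Other iron genes were named when among the 3 largest changes of a comparison with a mean of at least 1 FPKM. The counts include 1 gene whose own values are not reported here. Positions in the tables are not those of GRCm38, and their build is unclear. FPKM understates genes whose annotated exons exceed the main transcript. Library totals ran from 11638273 to 22873094 counts.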

Additional observations from a re-analysis of the deposited data

Results flagged for a closer look

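In BMDMs the knockout effect differed between LPS and PBS for Aco1, by 0.40 on the log2 scale (limma, adjusted p = 4.26e-05), and for Ftl1, by -0.12 (limma, adjusted p = 0.0140), both under the fold threshold. On log2(deposited FPKM + 0.1) that of Ftl1 was -0.016 (limma, adjusted p = 0.934). For Tfrc and Slc11a1 all libraries of one cell type moved one way and all of the other the opposite way. Tfrc with LPS against PBS had a log2 fold change of 0.62 in RAW264.7 and -0.12 in BMDMs in wild type, and 0.71 and -0.25 in libraries labelled knockout. Slc11a1 had 0.89 and -0.25 in wild type, and 0.74 and -0.22 in those labelled knockout. Tfrc in knockout against wild type with LPS had 0.088 in RAW264.7 and -0.066 in BMDMs, the latter turning to 0.074 on log2(deposited FPKM + 0.1). The difference between the cell types was not tested.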

How the results depend on the processing

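Counts of the 8 genes called moved by over 1.5 times in these cases. In RAW264.7, the 2 groups fitted alone gave 2 between genotypes with PBS (4 before), log2(FPKM + 1) gave 3 for LPS in wild type (5 before), and log2(FPKM + 0.1) and log2(FPKM + 1) gave 3 and 2 for LPS in those labelled knockout (5 before). The adjusted p alone gave, in BMDMs, 1 and 3 between genotypes with PBS and LPS (0 before), 8 for LPS in each genotype (4 before) and 2 for the difference of the knockout effect (0 before). Of all genes it passed 17.3% and 33.3% between genotypes, 80.6% and 79.1% for LPS in wild type and knockout, and 18.5% for the difference. Among called changes, direction turned on the deposited FPKM for Fth1 with LPS in wild-type BMDMs, to -0.026 with either pseudocount, and for Ireb2 with LPS in knockout BMDMs, to -0.041 and -0.038. Among differences under the fold threshold that passed the adjusted p, it turned on log2(FPKM + 0.1) for Ireb2 with LPS in wild-type BMDMs, to -0.22, and for Fth1 and Ftl1 in knockout against wild-type BMDMs with LPS, to 0.0039 and 0.049. That scale shifted the median gene by -0.22 and -0.24 with LPS in RAW264.7, by -0.76 and -0.66 in BMDMs, and by 0.14 between genotypes in BMDMs with LPS.

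Leaving out each replicate gave 3 to 4 called genes in RAW264.7 between genotypes with PBS, 4 to 5 for LPS in wild type and 4 to 6 in those labelled knockout, and 4 to 5 for LPS in wild-type BMDMs. Between genotypes with PBS in RAW264.7 the share over all genes moved more than this count. It was 37.9% without replicate 1 labelled knockout with PBS, against 21.2% with all libraries. In the other comparisons the count did not move. Same-numbered libraries of different groups correlated at -0.040 to 0.11 in RAW264.7 and -0.028 to 0.038 in BMDMs, and differently numbered ones at -0.11 to 0.071 and -0.029 to 0.024. In BMDMs with LPS, same-numbered libraries of the 2 genotypes were at 0.024 to 0.038, and those of wild type with PBS and LPS at -0.022 to -0.0082. Whether the numbers pair libraries is not settled by these values. With the replicate block the counts were 4, 4, 5, 5 and 0 in RAW264.7 and 0, 0, 4, 4 and 0 in BMDMs, as without it. Without the block the shares of all genes changed were 21.2%, 31.7%, 30.7%, 38.1% and 3.04% in RAW264.7. In BMDMs they were 3.72%, 8.87%, 56.1%, 53.5% and 5.4%. Over all genes, 2889 were changed between genotypes with PBS in RAW264.7, and 5804 by the adjusted p alone, 1474 with log2(FPKM + 1), 5167 with a weight for each library, 1359 with the 2 groups alone (41.6% of them higher, against 52.1%), and 5267, 1628 and 1652 without replicate 1, 2 or 3 labelled knockout. With LPS 4328 became 7165 by the adjusted p alone, and for LPS in wild type 4187 became 6510. The difference of the knockout effect went from 414 to 913 with weights and 879 without replicate 1 (35.6% higher, against 45.7%). In BMDMs the adjusted p alone and log2(FPKM + 1) gave 2431 and 256 with PBS (523 before), 4685 and 439 with LPS (1247 before) and 2607 and 402 for the difference (759 before). On log2(FPKM + 0.1) the share of changed genes that were higher went from 46.6% to 31.7% and from 48.9% to 33.8% for LPS in RAW264.7, from 44.8% to 19.6% and 44.7% to 20.6% in BMDMs, from 48.7% to 67.9% between genotypes in BMDMs with LPS and from 54.8% to 65.1% for the difference there. The cause was not tested. With 5 to 62 counts of Slc40a1 in a RAW264.7 library, depth limits what can be said of it.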

Other observations

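Of the 8 enzymes of heme synthesis, 4 were lower and 0 higher with LPS in wild-type RAW264.7 cells, 5 lower and 0 higher in those labelled knockout, and 4 lower and 1 higher in BMDMs of either genotype (limma, at the thresholds of the report). Of all genes tested, 30.7%, 38.1%, 56.1% and 53.5% were changed in wild-type RAW264.7, those labelled knockout, wild-type BMDMs and knockout BMDMs, so that 5 of 8 was near the share of all genes in BMDMs. In RAW264.7 labelled knockout it was again 5 lower and 0 higher without replicate 1 of the PBS group, with a median of -0.67. The median log2 fold changes were -0.52 in wild-type RAW264.7, -0.73 in those labelled knockout, -0.57 in wild-type BMDMs and -0.64 in knockout BMDMs, against 0.0087, 0.017, -0.073 and -0.066 over all genes. The higher one was Alas1, the first enzyme of the pathway, at 0.89 in wild type and 1.48 in knockout (limma, adjusted p = 1.54e-17 and 9.53e-23). Chosen after their values were seen, Cd163, the scavenger receptor for hemoglobin bound to haptoglobin, was at 2.82 ± 0.247 TMM-scaled FPKM with PBS and 0.204 ± 0.0637 with LPS in wild-type BMDMs (SD, n = 3; limma, log2 fold change -3.81 ± 0.25 (SE), adjusted p = 1.91e-13), and Ncoa4, the receptor that takes ferritin to the lysosome, was at 24.2 ± 0.756 and 6.90 ± 0.348 (limma, log2 fold change -1.81 ± 0.046 (SE), adjusted p = 9.95e-23). Values in knockout BMDMs are not given for either gene. Of the 4 tested genes of iron store and ferritin turnover, which include Ncoa4, 1 was higher and 2 lower with LPS in wild-type BMDMs, and 0 higher and 1 lower in knockout. The difference of the knockout effect was called for 0 of them. In RAW264.7 with PBS, Ncoa4 was at 1.35 ± 0.0818 in wild type and 2.96 ± 1.03 in those labelled knockout (limma, log2 fold change 1.06 ± 0.25 (SE), adjusted p = 0.00731), with a log2 fold change of 1.37 without replicate 1.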
